A study of Mus musculus with 22 samples.

Results

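Fc receptors bind the constant part of antibodies, and the related Fc receptor-like proteins share their immunoglobulin domains. The genes described here are 7 such genes that B cells are known to use: Fcrl5, Fcrl1, Fcrla and Fcrlb of the Fc receptor-like family, and Fcgr2b, Fcmr and Fcer2a, which encode receptors for IgG, IgM and IgE. They were picked by name, as rows of the deposited count table after its gene identifiers were matched to mouse symbols, and all 7 were found among 52636 genes. The choice was made with earlier results of these data known. On B cells many of these receptors set the threshold of antigen receptor signalling. Some carry inhibitory tyrosine motifs that recruit phosphatases, others carry activating motifs, and a few stay inside the cell. The mix on a B cell is known to change with its subset: follicular B cells carry the IgE receptor, whereas mouse marginal zone and B1 cells carry Fcrl5.

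The samples are 22 libraries of mouse lymphoma from 15 donor mice of a mixed 129/C57Bl6 background. Every tumour donor carried floxed p53 alleles and a Cre transgene under Mb1 (Cd79a) control, which places the deletion in the B lineage, and no group is labelled as wild type for p53. MCL-like tumours (R26-Ccnd2tg/tg;p53fl/fl;Mb1Cretg/+, with a cyclin D2 transgene in the Rosa26 locus and a surface phenotype resembling mantle cell lymphoma) gave 6 transplant libraries from 4 donor mice and 4 primary libraries from 4 mice. Ccnd2 non-MCL tumours, with the same genotype label and another phenotype, gave 2 transplant libraries from 1 donor mouse and 3 primary libraries from 3 mice. The p53-only tumours (p53fl/fl;Mb1Cretg/+, non-MCL, no transgene) gave 7 primary libraries from 6 mice. Transplants grew in NSG mice, a strain that lacks its own mature T, B and NK cells but keeps myeloid, red cell and stromal lineages. Primary tumours were from spleen except MCL-like replicate 1 (mesenteric), Ccnd2 non-MCL replicate 1 (mediastinal) and p53-only libraries 4 to 7 (mediastinal, thymoma and unspecified lymphoma). Ccnd2 non-MCL replicate 3 and p53-only libraries 4 to 7 have names that start with oTP, whose meaning the labels do not give, and no MCL-like library does. Ages are not given in the labels.

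Libraries held 2693399 to 8146613 counts of tags from the 3' end of transcripts, so a level is given as CPM (a gene's counts scaled to a common library total) without a length term and is not compared between genes. The 6 transplants called MCL-like here have titles that say non-MCL; their immunophenotype field says MCL-like and was followed. Levels by mouse sum a mouse's libraries, which joins libraries 2 and 5 of the p53-only group as replicate 2. All 8 general B cell markers were detected in every group. Ccnd2, which the transgene encodes, was at 1181 to 2127 CPM in MCL-like primaries, 451 to 1953 CPM in Ccnd2 non-MCL primaries and 5.49 to 893 CPM in p53-only primaries. The mouse behind the transplants labelled Ccnd2 non-MCL had 64.9 CPM, whereas the primaries of this genotype all had more. The labels do not say whether 3' tags of the transgene are counted as Ccnd2, so these values do not check the genotype. Trp53 was at 0.899 to 17.6 CPM in all mice, and 3' tags can lie outside a floxed deletion, so this does not check the deletion. Ccnd2 non-MCL replicate 3 had 39.2 CPM of Cd5, a B1a marker, within the MCL-like primary range of 24.1 to 47.0 CPM, whereas replicates 1 and 2 had 0 and 0.599 CPM.

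The genes lie in a few clusters (GENCODE M21 on GRCm38). Fcrl1 (ENSMUSG00000059994, chromosome 3, 87376387 to 87402934, plus strand) and Fcrl5 (ENSMUSG00000048031, chromosome 3, 87435773 to 87500678, plus strand) are neighbours, 32839 bases apart. Fcrlb (ENSMUSG00000070524, 170907273 to 170912941), Fcrla (ENSMUSG00000038421, 170917576 to 170927583) and Fcgr2b (ENSMUSG00000026656, 170958617 to 170976547) follow each other on the minus strand of chromosome 1. Fcmr (ENSMUSG00000042474, 130865669 to 130880791, plus strand) is elsewhere on chromosome 1. Fcer2a (ENSMUSG00000005540, 3681737 to 3694175, minus strand) is on chromosome 8. Fcrla overlaps the pseudogene Gm2962 on its own strand, so reads could be split between them. Fcgr2b overlaps Gm38204 on the opposite strand, which had 1 count in 1 mouse and 0 in the rest.

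The promoters of the 3 members that passed a test below are shown, each as the 250 bases before the RefSeq start site (GRCm38.p6). Capitals mark any of 4 short motifs, searched on both strands of a window of 300 bases that also takes in the first 50 transcribed bases. Fcrl5 is at chr3:87435532-87435781 (plus strand), Fcrl1 at chr3:87376137-87376386 (plus strand) and Fcrla at chr1:170927584-170927833 (minus strand).
Fcrl5: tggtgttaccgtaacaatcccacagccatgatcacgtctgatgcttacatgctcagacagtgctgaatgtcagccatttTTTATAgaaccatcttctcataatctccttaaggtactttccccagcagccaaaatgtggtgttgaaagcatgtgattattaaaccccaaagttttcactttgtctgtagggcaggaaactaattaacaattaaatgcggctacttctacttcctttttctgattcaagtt
Fcrl1: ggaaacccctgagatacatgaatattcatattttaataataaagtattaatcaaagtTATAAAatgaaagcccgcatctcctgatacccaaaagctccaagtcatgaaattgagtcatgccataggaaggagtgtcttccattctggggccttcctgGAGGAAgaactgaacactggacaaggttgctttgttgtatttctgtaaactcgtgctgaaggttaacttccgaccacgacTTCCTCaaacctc
Fcrla: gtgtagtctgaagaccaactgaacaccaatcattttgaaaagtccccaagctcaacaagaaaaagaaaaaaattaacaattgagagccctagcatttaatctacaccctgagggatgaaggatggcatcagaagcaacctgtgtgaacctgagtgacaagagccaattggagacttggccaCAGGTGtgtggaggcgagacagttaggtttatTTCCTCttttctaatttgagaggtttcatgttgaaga
The motifs were the octamer ATTTGCAT, the E box CAGGTG, the PU.1 core GAGGAA and the TATA box TATAAA, and none of these overlaps another by its letters in the windows shown. Among 32851 mouse promoters of the same length, 1.74% held the octamer, 20.2% this E box, 28.3% the PU.1 core and 13.6% the TATA box. Positions count from the start site and give the leftmost base as printed. The Fcrl5 window held only a TATA box on the opposite strand, at -171. Fcrl1 held the PU.1 core at -93 and, on the opposite strand, at -13, and a TATA box at -193. Fcrla held an E box at -69, a PU.1 core on the opposite strand at -37, and a TATA box 27 bases past the start site, outside the printed stretch. These are matches of letters that are common among promoters, and they were not tied to any factor.

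Fcrl5 had the largest log2 fold change of the 6 tested members between MCL-like and all non-MCL primaries. Its protein combines activating and inhibitory motifs in its tail and marks mouse marginal zone and B1 cells. MCL-like primaries had 13.4, 22.4, 26.6 and 123 CPM in replicates 1 to 4. Ccnd2 non-MCL primaries had 1.11, 0.599 and 5.16 CPM, and p53-only primaries had a lowest value of 0, a median of 0.605 and a highest of 2.78 CPM. Every MCL-like primary was thus above every non-MCL primary, and replicate 4 stood far above the other MCL-like mice.

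Against all 9 non-MCL primaries, Fcrl5 averaged 46.3 ± 51.4 CPM (SD, n = 4) in MCL-like and 1.33 ± 1.67 CPM (SD, n = 9) in non-MCL primaries. It rose by a log2 fold change of 4.99 ± 0.83 (SE; edgeR adjusted p = 0.0081) and ranked 19 of 12967 genes tested by fold change. It also rose against the p53-only group alone, by 5.56 ± 0.97 (SE; edgeR adjusted p = 0.0095). Against the 3 Ccnd2 non-MCL mice the difference was 4.27 ± 1.22 (SE) on the log2 scale and did not pass (edgeR adjusted p = 0.111). DESeq2 called that difference (adjusted p = 0.00309), as did edgeR without the libraries whose names start with oTP (adjusted p = 0.0187); over its 21 alternatives the adjusted p ran up to 0.257. The calls against all non-MCL and against p53-only mice held in 21 of 21 alternatives each, with adjusted p up to 0.0421 and 0.0410. Against all non-MCL primaries the log2 fold change was 4.09 without MCL-like replicate 4 (edgeR adjusted p = 0.0421) and 5.62 with replicate 3 of the Ccnd2 non-MCL group left out (edgeR adjusted p = 0.00325), the ends of its range over the 21. The same value was 5.36 without the oTP libraries and 4.78 in spleen tumours only (edgeR adjusted p = 0.00666 and 0.0348). No comparison could be made within oTP libraries, since none was MCL-like.

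**Figure D1:**
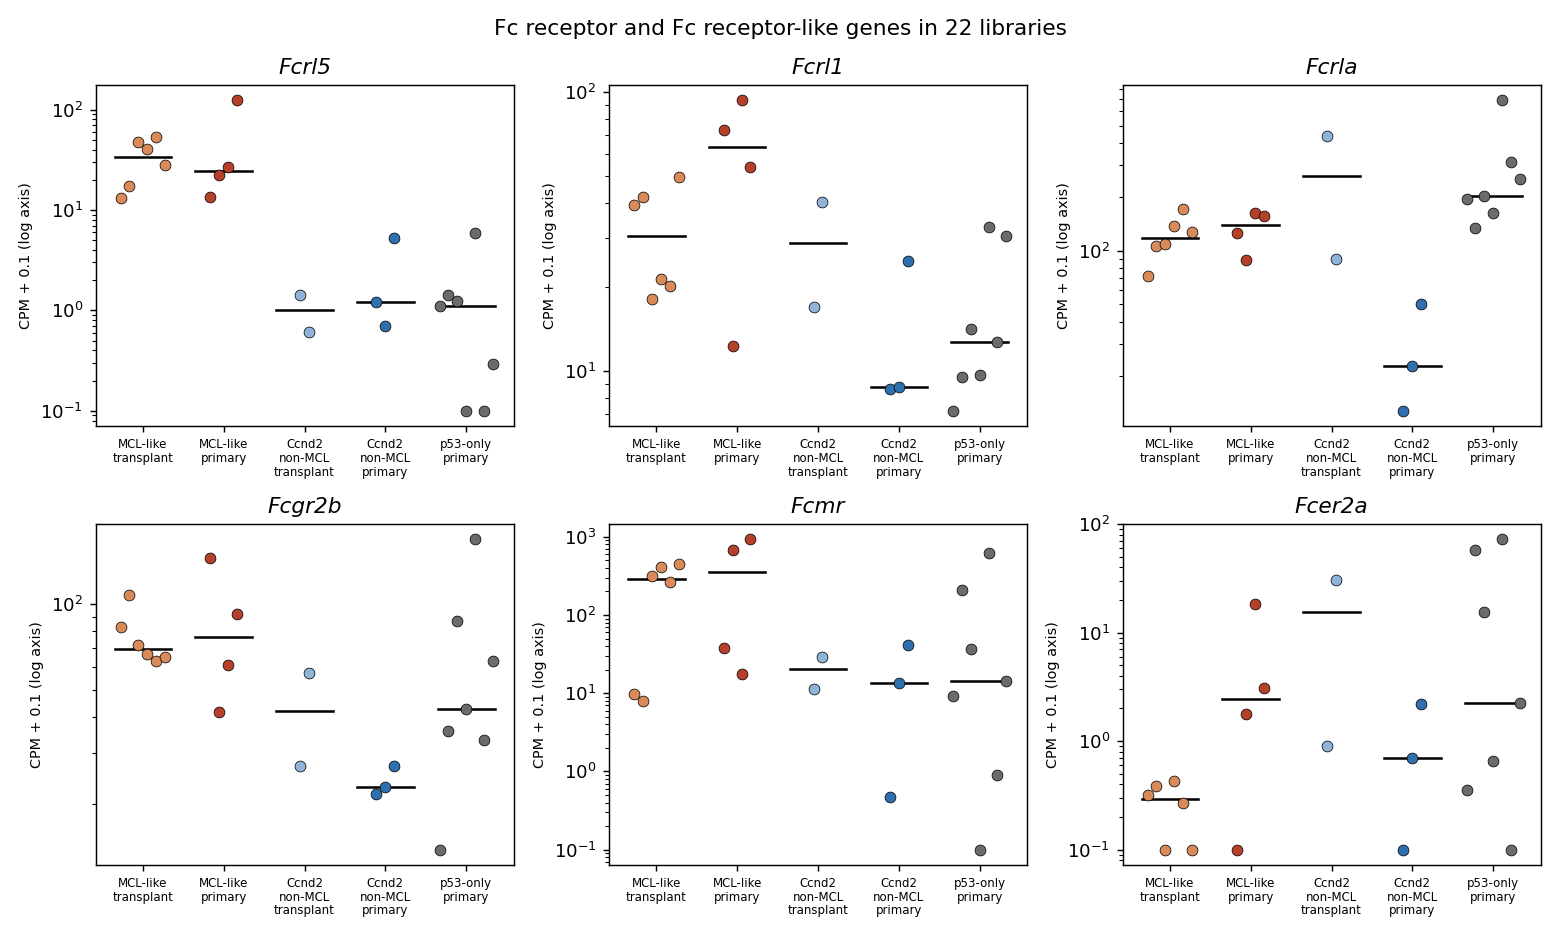
Levels of 6 members in 22 libraries, 1 panel per gene, as CPM + 0.1 on a log axis; each point is a library, bars are group medians, and groups run from MCL-like transplants and primaries to Ccnd2 non-MCL transplants and primaries and p53-only primaries. Every MCL-like library has more Fcrl5 than every other library, between 12.97 and 123 CPM against at most 5.79 CPM.

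Transplants kept the same order for Fcrl5. MCL-like transplant libraries had 12.97 and 17.2 CPM (donor replicate 1), 47.2 and 40.0 CPM (donor replicate 4), 27.9 CPM (donor replicate 2) and 53.4 CPM (a donor with no primary library). The transplants labelled Ccnd2 non-MCL had 1.32 and 0.508 CPM, or 5 and 2 counts. By group mean, MCL-like transplants (34.9 ± 17.0 CPM, SD, n = 4 mice) and MCL-like primaries came first and overlapped. The Ccnd2 non-MCL transplant mouse (0.907 CPM), the Ccnd2 non-MCL primaries (2.29 ± 2.50 CPM, SD, n = 3) and the p53-only primaries (0.857 ± 1.07 CPM, SD, n = 6) came after them and overlapped each other.

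Markers of other cell types are given beside these values. The 8 B1 cell markers listed, none of them a member and none at 0 in a group, summed to 842 to 981 CPM in MCL-like, 115 to 539 CPM in Ccnd2 non-MCL and 109 to 304 CPM in p53-only primary libraries, and to 544 to 1092 CPM in MCL-like transplants. Of them 3 (Zbtb32, Arid3a and Plscr1) rose against all non-MCL primaries by edgeR and 0 fell, where 2.84% of all genes rose and 2.68% fell. Against Ccnd2 non-MCL primaries 0 of 8 were called. In the same comparison with all non-MCL primaries 4 of 8 pro-B and pre-B cell markers fell (Rag1, Rag2, Il7r and Sox4), and the median log2 fold change of the 8 was -5.31. Of 8 general B cell markers, Ms4a1 and Cd37 rose and 0 fell by edgeR, with positive log2 fold changes in 6 of 8. Ebf1 of that list had 98.7 to 1078 CPM in MCL-like and 1922 to 3548 CPM in Ccnd2 non-MCL primaries. It had 221 to 3435 CPM in p53-only primary libraries. Of 7 T cell and 7 erythroid markers 0 were called, with positive log2 fold changes in 7 of 7 each and medians of 1.49 and 2.26, beside -0.13 for all genes. T cell markers summed to 65.4 to 215 CPM in MCL-like, 11.1 to 37.8 CPM in Ccnd2 non-MCL and 2.20 to 257 CPM in p53-only primary libraries. Erythroid markers summed to 22957 to 110354 CPM in MCL-like, 3132 to 32058 CPM in Ccnd2 non-MCL and 89.0 to 38085 CPM in p53-only primary libraries. The part of any of these markers in the Fcrl5 difference was not tested. The marker lists were chosen with earlier results of these data known, so these counts are no separate evidence. In such bulk samples fewer cells of a type and less RNA per cell cannot be told apart.

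Fcrl1 rose in MCL-like primaries too, with a smaller difference and with overlap. In humans Fcrl1 protein is an activating co-receptor of B cells. MCL-like primaries had 73.2, 12.2, 93.4 and 53.7 CPM in replicates 1 to 4. Ccnd2 non-MCL primaries had 8.54, 8.69 and 24.7 CPM, and p53-only primaries ran from 7.10 over a median of 13.3 to 30.4 CPM. Of the MCL-like mice 3 were above every non-MCL mouse, and replicate 2 lay among them.

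The log2 fold change of Fcrl1 was 2.11 ± 0.45 (SE; edgeR adjusted p = 0.0167) against all non-MCL primaries and 2.06 ± 0.51 (SE; edgeR adjusted p = 0.0341) against p53-only primaries. Against Ccnd2 non-MCL primaries it was 2.21 ± 0.66 (SE), which did not pass (edgeR adjusted p = 0.122), although DESeq2 called it (adjusted p = 0.0158, with 0.288 as the highest of its 21 alternatives). The call against all non-MCL primaries was lost without MCL-like replicate 1 (adjusted p = 0.0641), without replicate 3 (0.0746), in spleen tumours only (0.175) and in limma-voom (0.0501), and it was kept without the oTP libraries (0.0340). The call against p53-only mice was lost without MCL-like replicates 1, 3 or 4 (adjusted p = 0.0883, 0.104 and 0.0695), without p53-only replicates 4 or 6 (0.0633 and 0.0700), and in 3 further alternatives, with 0.173 the highest. MCL-like transplant libraries ran from 18.0 to 49.6 CPM, and the transplants labelled Ccnd2 non-MCL had 16.9 and 40.4 CPM, so the groups grown in NSG hosts overlapped for Fcrl1.

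Fcrla followed another order, low in the Ccnd2 non-MCL primaries and high in both other primary groups. Its protein stays inside B cells, in the endoplasmic reticulum, and binds immunoglobulins there. MCL-like primaries had 125, 89.0, 163 and 155 CPM, against 12.6, 22.5 and 50.3 CPM in Ccnd2 non-MCL primaries. The p53-only primaries ran from 163 over a median of 226 to 315 CPM. All MCL-like mice were above all Ccnd2 non-MCL mice. In unscaled CPM all p53-only mice were above both other groups. Against MCL-like mice this rests on 162.9 CPM in p53-only replicate 4 and 162.7 CPM in MCL-like replicate 3. The scaling factors (TMM) of these mice in the fits were 1.08 and 0.941, and such scaling reverses their order. Library 2 of the p53-only group, taken alone, had 134 CPM.

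Between MCL-like and Ccnd2 non-MCL primaries Fcrla rose by 2.36 ± 0.44 on the log2 scale (SE; edgeR adjusted p = 0.0484), the 1 member of 6 tested that passed there; 0.0617% of all genes rose in that comparison and 0.247% fell. This call is close to the threshold and held in 10 of 21 alternatives. It was lost without any of MCL-like replicates 1 to 4 (adjusted p = 0.111, 0.114, 0.130 and 0.0955), without Ccnd2 non-MCL replicates 1 or 2 (0.0912 and 0.123), without p53-only replicates 6 or 7 (0.0551 and 0.0533), with library-size scaling (0.0508) and in 2 further alternatives. The log2 fold change stayed between 1.96, in spleen tumours only (edgeR adjusted p = 0.0748), and 3.05 in all 21 alternatives, and was 3.01 without the oTP libraries (edgeR adjusted p = 0.00638). Between MCL-like and p53-only primaries Fcrla was at a log2 fold change of -0.77 ± 0.35 (SE; edgeR adjusted p = 0.172), which did not pass.

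Ccnd2 non-MCL and p53-only primaries share the non-MCL label and differ in the transgene. There Fcrla was at a log2 fold change of -3.13 ± 0.44 (SE), every Ccnd2 non-MCL mouse being lower, as for 1.58% of all genes. Its edgeR adjusted p of 0.0588 missed the threshold. No gene of 12967 passed in that fit (0% of all genes, with 1330 at an unadjusted p under 0.05), and 0 of 6 members did (2 at an unadjusted p under 0.05). DESeq2 called 115 genes and limma-voom 1 gene in this comparison, and Fcrla was called by both, with adjusted p = 3.03e-10 and 0.0147. It was also called by edgeR without Ccnd2 non-MCL replicate 3 (0.0105) and without p53-only replicate 7 (0.0402), and it passed in 7 of 21 alternatives in all. Over the 21 its adjusted p ran up to 0.289, and its log2 fold change stayed between -3.77 and -2.41.

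Vpreb1, a surrogate light chain of pro-B and pre-B cells, was high in tumours with little Fcrla and in tumours with much. It was at 5231, 5691 and 2424 CPM in Ccnd2 non-MCL replicates 1 to 3, where Fcrla was lowest. In p53-only replicates 4, 6 and 7 it was at 5132, 458 and 2879 CPM, where Fcrla was at 163, 313 and 251 CPM. Its part in the Fcrla difference was not tested. The summed level of the 8 pro-B and pre-B markers was 18.1 to 338 CPM in MCL-like, 3517 to 8470 CPM in Ccnd2 non-MCL and 52.3 to 7843 CPM in p53-only primary libraries, and no marker was at 0 in a whole group.

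Fcrla also split repeat libraries of single mice. The transplants labelled Ccnd2 non-MCL had 435 and 89.2 CPM, a 4.87-fold gap between libraries of 1 donor. The libraries 2 and 5 of the p53-only group, from 1 mouse and named from spleen and lymphoma, had 134 and 690 CPM, a 5.16-fold gap. MCL-like transplant libraries of a shared donor stayed within 1.48-fold of each other, with 71.6 and 106 CPM for donor replicate 1 and 108 and 136 CPM for donor replicate 4. The other MCL-like transplants had 170 and 127 CPM.

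Gm2962, the pseudogene inside the Fcrla locus, had the profile most like Fcrla among 9069 genes, with r = 0.891 over 13 primary mice. Fcrlb, the close relative next to Fcrla whose protein also stays inside the cell, was near the detection limit. It reached at most 1.07 CPM in any library and summed to 6 counts in MCL-like, 0 in Ccnd2 non-MCL and 3 in p53-only primaries. It failed the low-count filter in every comparison and was not tested. A count of 0 in a library allows a level of up to 0.368 to 1.11 CPM, depending on depth and covering counting error only.

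Fcgr2b encodes the inhibitory IgG receptor, which recruits the phosphatase SHIP1 (Inpp5d) and damps antigen receptor signals. MCL-like primaries had 144, 41.6, 60.8 and 92.1 CPM, against 21.5, 22.8 and 27.0 CPM in Ccnd2 non-MCL primaries. The p53-only primaries ran from 13.7 over a median of 52.7 to 86.7 CPM. The MCL-like mice were all above the Ccnd2 non-MCL mice and overlapped the p53-only mice. The log2 fold change was 1.99 ± 0.58 against Ccnd2 non-MCL and 1.09 ± 0.46 against all non-MCL primaries (SE; edgeR adjusted p = 0.120 and 0.155), and neither passed. DESeq2 called the first (adjusted p = 0.0158, with 0.308 the highest over its 21 alternatives). Of 6 members tested between MCL-like and Ccnd2 non-MCL primaries, 3 (Fcrl5, Fcrla and Fcgr2b) had every MCL-like mouse higher; 5.66% of all genes did.

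Macrophages also express Fcgr2b. The 10 macrophage markers summed to 297 to 862 CPM in MCL-like, 457 to 685 CPM in Ccnd2 non-MCL and 199 to 1399 CPM in p53-only primary libraries, with none at 0, and 0 of 10 were called in any comparison by edgeR. Their part in the Fcgr2b values was not tested. MCL-like transplants had 63.0 to 107 CPM of Fcgr2b, and the transplants labelled Ccnd2 non-MCL had 27.0 and 56.9 CPM.

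Fcmr, the receptor for IgM, spanned a wide range among MCL-like mice. MCL-like replicates 2 and 4 had 674 and 931 CPM, whereas replicates 1 and 3 had 38.1 and 17.4 CPM. Ccnd2 non-MCL primaries had 0.371, 13.5 and 41.0 CPM. The p53-only primaries ran from 0 over a median of 11.6 to 343 CPM, and the highest value was replicate 2, whose libraries had 207 and 626 CPM. The high MCL-like pair exceeded every non-MCL mouse, and the low pair lay inside their range.

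The mean Fcmr level was 415 ± 459 CPM (SD, n = 4) in MCL-like and 51.0 ± 111 CPM (SD, n = 9) in non-MCL primaries. The log2 fold change of 2.99 ± 1.35 (SE) did not pass (edgeR adjusted p = 0.180), nor did those against Ccnd2 non-MCL (4.54 ± 2.18, SE; 0.314) or p53-only primaries (2.58 ± 1.52, SE; 0.288). Without p53-only replicate 2 the first was 4.87 and was called (edgeR adjusted p = 0.0308). The other 20 of its 21 alternatives did not pass, with adjusted p up to 0.386, and the lowest log2 fold change was 2.14, with libraries of a mouse kept apart (2.43 without MCL-like replicate 4).

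Pigr, 13420 bases from Fcmr on the same strand, encodes the related receptor that carries polymeric IgA and IgM across epithelia. It was high in part of the tumours with high Fcmr. MCL-like transplants had 58.1 CPM (donor replicate 2), 22.1 CPM (donor replicate 4), 30.4 CPM (the donor with no primary) and 0 CPM (donor replicate 1, with 8.90 CPM of Fcmr). MCL-like primaries had 0.595, 138, 0.950 and 4.84 CPM in replicates 1 to 4. No non-MCL mouse passed 2.34 CPM, and that value belonged to p53-only replicate 2, with 343 CPM of Fcmr. Pigr failed the low-count filter among primaries and was not tested.

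**Figure D2:**
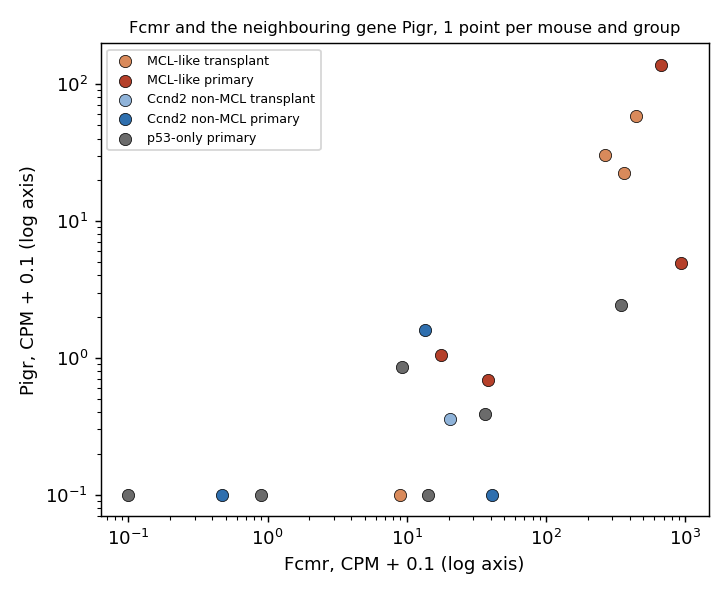
Fcmr (x axis) and its neighbour Pigr (y axis), both as CPM + 0.1 on log axes, with 1 point per mouse and group. The points with over 20 CPM of Pigr are 3 MCL-like transplant mice and MCL-like primary replicate 2, and all have at least 265 CPM of Fcmr.

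Fcer2a encodes CD23, the low-affinity IgE receptor of follicular B cells, and was low in most tumours. MCL-like primaries had 0, 1.69, 18.4 and 2.96 CPM, or 0, 8, 58 and 11 counts. Ccnd2 non-MCL primaries had 0, 0.599 and 2.09 CPM, and p53-only primaries ran from 0 over a median of 1.35 to 62.3 CPM. Single mice held most of the signal: MCL-like replicate 3, and p53-only replicates 2 and 3 with 62.3 and 15.3 CPM. The log2 fold change between MCL-like and all non-MCL primaries was -0.66 ± 1.57 (SE; edgeR adjusted p = 0.820) and turned to 1.22 without p53-only replicate 2.

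The follicular B cell markers other than Fcer2a itself summed to 407 to 774 CPM in MCL-like, 153 to 476 CPM in Ccnd2 non-MCL and 45.6 to 656 CPM in p53-only primary libraries, with none at 0. In the 6 MCL-like transplant libraries Fcer2a had 0 or 1 count each, at most 0.328 CPM. The transplants labelled Ccnd2 non-MCL had 3 and 119 counts, or 0.794 and 30.2 CPM.

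Over all members, 2 of 6 tested rose in MCL-like against all non-MCL primaries and 0 fell, where 2.84% of all genes rose and 2.68% fell. Against p53-only primaries 2 of 6 rose and 0 fell, where 2.95% of all genes rose and 2.86% fell. In unscaled CPM every MCL-like mouse was above every p53-only mouse for Fcrl5 and below for Fcrla, as for 3.83% and 7.12% of all genes. For Fcrla this rests on 162.7 against 162.9 CPM and does not hold with TMM scaling. The median log2 fold change of the 6 was 1.60, 1.43 and 2.49 against all non-MCL, p53-only and Ccnd2 non-MCL primaries, beside -0.13, -0.11 and -0.04 for all genes tested. Comparisons that share the MCL-like mice are not independent of each other. The members and the gene lists above and below were chosen with earlier results of these data known. Their counts beside the shares of all genes are therefore no separate evidence. Every MCL-like mouse was above every non-MCL mouse for 1 member, Fcrl5, as for 1.82% of all genes.

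**Figure D3:**
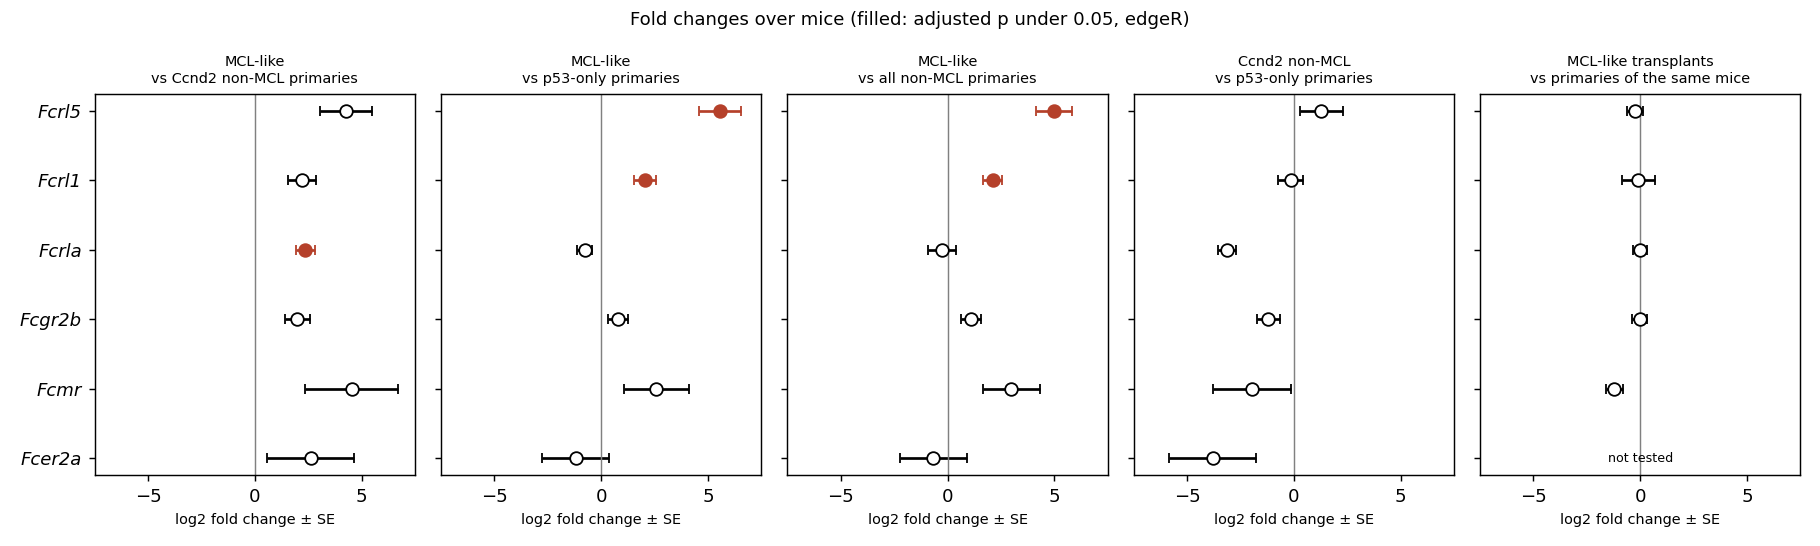
Log2 fold changes (x axis, ± SE) of 6 members (rows) in 5 comparisons over mice (panels), with positive values higher in the group named first. Filled points passed an edgeR adjusted p of 0.05: Fcrl5 and Fcrl1 against p53-only and against all non-MCL primaries, and Fcrla against Ccnd2 non-MCL primaries.

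Transplants and primaries could be compared in 3 donor mice, MCL-like replicates 1, 2 and 4, with mouse as a block. Of 5 members tested 0 passed in edgeR, nor did any of 12020 genes (0% of all genes, with 656 genes and 1 member, Fcmr, at an unadjusted p under 0.05). DESeq2 called 32 genes and limma-voom 0, none of them a member. Fcmr had 8.90, 442 and 364 CPM in the transplants of replicates 1, 2 and 4, against 38.1, 674 and 931 CPM in their primaries, with the same direction in 3 of 3 donors (log2 fold change -1.21 ± 0.40, SE; edgeR adjusted p = 0.820). Replicate 1 had the lowest Fcmr in transplants and in primaries, whereas replicates 2 and 4 changed order.

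For Fcrl5 the transplants had 14.8, 27.9 and 43.6 CPM, against 13.4, 22.4 and 123 CPM in the primaries of the same donors. For Fcrl1 they had 40.5, 49.6 and 19.7 CPM, against 73.2, 12.2 and 53.7 CPM. Replicate 2, the MCL-like primary with the least Fcrl1, gave the transplant with the most. Its Fcgr2b was 65.1 CPM in the transplant and 41.6 CPM in the primary, whereas it was 93.2 and 69.2 CPM in the transplants and 144 and 92.1 CPM in the primaries of replicates 1 and 4. Log2 fold changes of Fcrl5, Fcrl1, Fcrla and Fcgr2b lay between -0.25 and -0.01, with SEs of 0.32 to 0.77. The 7 erythroid markers summed to 274 to 117945 CPM in MCL-like transplant and 22957 to 110354 CPM in MCL-like primary libraries, and the 7 T cell markers to 11.5 to 43.3 and 65.4 to 215 CPM. Their part in these values was not tested.

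**Figure D4:**
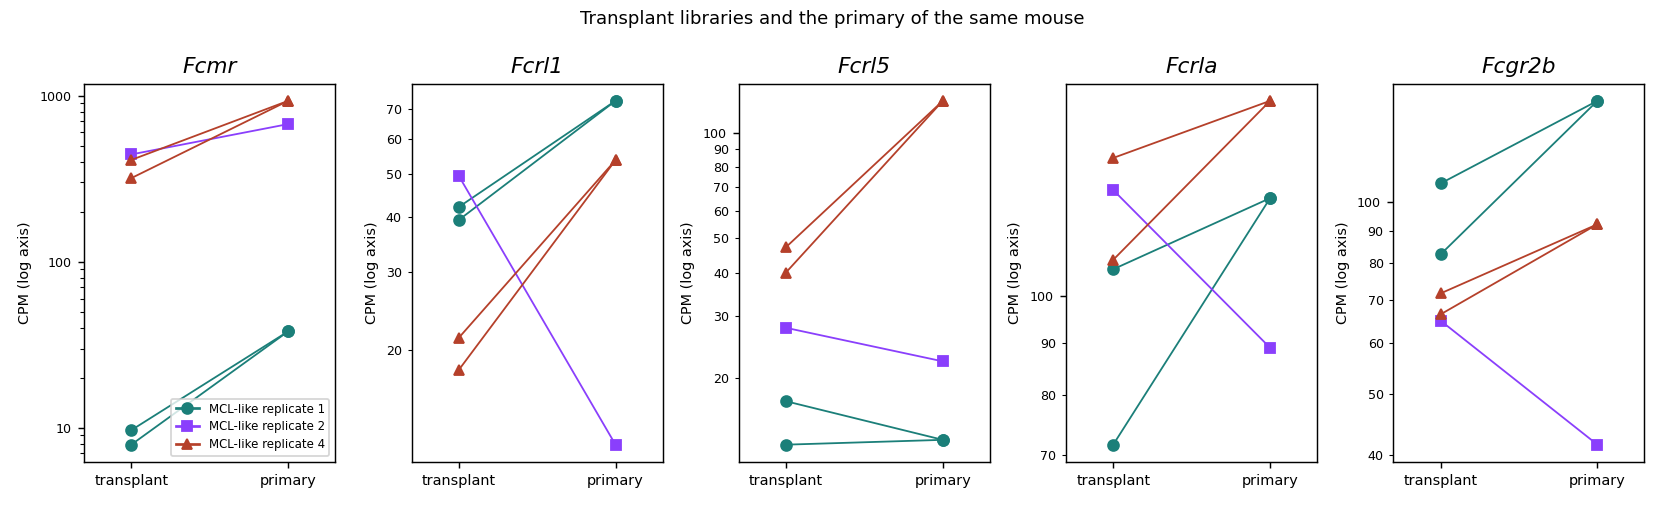
CPM (log axes, a scale for each gene) of 5 members in transplant libraries (left) and in the primary of the same donor mouse (right), joined by lines; donors 1 and 4 have a pair of transplant libraries each. Fcmr is lower in every transplant library than in its primary, while Fcrl1 differs in direction between donors.

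Beyond the members, 14 further genes were listed, mostly Fc receptor and Fc receptor-like genes. The list also holds Cd209a and Cd5l, which encodes a secreted macrophage protein. In the primaries 8 were tested and 0 were called by edgeR in any of the 4 comparisons. Fcrl6, a further Fc receptor-like gene, had 2 counts in all MCL-like primaries together (0, 0, 0 and 0.537 CPM). Ccnd2 non-MCL primaries had 5.57, 15.3 and 3.68 CPM, and p53-only primaries had 0 to 32.9 CPM. The p53-only mice with 28.8, 32.9 and 4.67 CPM were replicates 4, 6 and 7, and the others had at most 0.576 CPM. Vpreb1 was at 5132, 458 and 2879 CPM in replicates 4, 6 and 7, and at most 4.82 CPM in the other p53-only mice. MCL-like replicate 4 had 224 CPM of Vpreb1 and 0.537 CPM of Fcrl6. A link between these genes was not tested. The Fcrl6 difference of MCL-like from all non-MCL primaries did not pass (edgeR adjusted p = 0.0563), with adjusted p from 0.00141 to 0.323 over 21 alternatives and 4 of them past the threshold. Fcgr3, an activating low-affinity IgG receptor of myeloid cells, was at 10.3 ± 3.94 CPM (SD, n = 4) in MCL-like and 14.6 ± 13.6 CPM (SD, n = 9) in non-MCL primaries (edgeR adjusted p = 0.609). Fcgr4, a further activating IgG receptor of myeloid cells near Fcgr2b, was at 48.5 ± 29.3 CPM (SD, n = 4) in MCL-like and 35.99 ± 46.7 CPM (SD, n = 9) in non-MCL primaries (edgeR adjusted p = 0.780). The list's median log2 fold change against all non-MCL primaries was 0.47, beside -0.13 for all genes.

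Among 15 inhibitory receptors and phosphatases of B cells, 1 rose against all non-MCL primaries and 0 fell, where 2.84% of all genes rose and 2.68% fell. Pirb, an inhibitory receptor for MHC class I, had 49.8 to 51.6 CPM in MCL-like and 1.92 to 34.0 CPM in non-MCL primaries (log2 fold change 2.04 ± 0.53, SE; edgeR adjusted p = 0.0392), a call that held in 9 of 21 alternatives and was lost without any 1 of the 4 MCL-like mice. Ceacam1, an inhibitory adhesion receptor, rose against p53-only primaries (2.30 ± 0.41, SE, edgeR adjusted p = 0.0095), and this held in 20 of 21 alternatives. Against Ccnd2 non-MCL primaries Ceacam1 overlapped and did not pass (0.62 ± 0.49, SE, edgeR adjusted p = 0.556). Nor did it pass against all non-MCL primaries (1.51 ± 0.50, SE, edgeR adjusted p = 0.0836). The phosphatases through which Fcgr2b signals were not called. Of these, Inpp5d had 70.5 to 167 CPM in MCL-like and 183 to 284 CPM in Ccnd2 non-MCL primaries. It had 96.2 to 269 CPM in p53-only primary libraries. Log2 fold changes against all non-MCL primaries were positive in 11 of the 15 listed genes. The list's median log2 fold change against all non-MCL primaries was 1.18, beside -0.13 for all genes.

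Of 14 B cell receptor and co-receptor genes, Cd81 and Lyn rose against all non-MCL primaries and none fell, where 2.84% of all genes rose and 2.68% fell. Lyn, the kinase that phosphorylates inhibitory motifs of Fc receptors, had 360 to 450 CPM in MCL-like and 112 to 283 CPM in non-MCL primaries (log2 fold change 1.25 ± 0.27, SE; edgeR adjusted p = 0.0174), and it was called in 15 of 21 alternatives, not without MCL-like replicates 1, 2 or 3 (0.0599, 0.0567 and 0.0591). Cd81, a tetraspanin of the cell surface, had 218 to 390 CPM in MCL-like and 71.4 to 156 CPM in non-MCL primaries (1.52 ± 0.25, SE; edgeR adjusted p = 0.0079), called in 20 of 21 alternatives. Ighm, the heavy chain of the IgM that Fcmr binds, had 6419 ± 3800 CPM (SD, n = 4) in MCL-like and 2602 ± 1703 CPM (SD, n = 9) in non-MCL primaries and did not pass (edgeR adjusted p = 0.0818). The list's median log2 fold change was 0.61. Of 5 partners of the IgE receptor, the protease Adam10 and the ligands Cr2, Itgam, Itgax and Itgb2, 0 were called by edgeR, and their median log2 fold change was 0.78.

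Of the genes beside Fcrl1 and Fcrl5, Etv3, a repressor of the ETS family 24729 bases from Fcrl5, rose by 0.83 ± 0.23 on the log2 scale against all non-MCL primaries (SE; edgeR adjusted p = 0.0486), a call that held in 7 of 21 alternatives, with 0.247 the highest adjusted p, and was lost without any 1 of the 4 MCL-like mice. Cd5l, a secreted macrophage protein 5314 bases from Fcrl1, did not pass (1.09 ± 0.82, SE; edgeR adjusted p = 0.421). The genes most like each member over the 13 primary mice were found by Pearson's r of log2(TMM-scaled CPM + 1). Each set is the top 3 of 9069 or 9070 genes compared. Picking the highest of so many over 13 mice gives a high r by itself, and no r was tested. All genes of a mouse share its libraries and their depth, which differed between mice. For Fcrl5 they were Tmc3 (r = 0.976), Adm (0.962) and Irak2 (0.947). All 3 were higher in every MCL-like than in every non-MCL primary, as were 1.82% of all genes. They were picked for likeness to Fcrl5, which has that order itself, so their order is no separate evidence. Adm, the vasoactive peptide adrenomedullin, had 82.3 to 361 CPM in MCL-like and 1.37 to 15.3 CPM in non-MCL primaries. For Fcrl1 they were Tmcc3 (0.909), Mknk1 (0.858) and Cd274 (0.847), and for Fcmr Mtmr14 (0.942), Retreg1 (0.920) and Zdhhc9 (0.906). For Fcgr2b they were Ffar1 (0.876), Gpr174 (0.875) and Cd28 (0.873), for Fcrla after Gm2962 Phf10 (0.885) and Ttc27 (0.841), and for Fcer2a mt-Tq (0.884), Ikzf2 (0.863) and Sertad2 (0.842).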

How the data were processed

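Fresh lymphoma cells gave RNA for 3' end libraries, per the labels' protocols. The submitters' processing notes name FastQC, STAR and the build GRCm38. For the read counter, its strand setting and tool versions, the sources used here give nothing. Values as deposited by the authors were whole, unnormalized counts for each gene in each library. Symbols and positions came from GENCODE M21, which held 52489 of 52636 identifiers, and promoters from RefSeq (GRCm38.p6), which held all 7 members.

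CPM was computed here from the counts, unscaled. Libraries of a mouse in a group were summed. Genes passing edgeR's default low-count filter on the study groups were fitted with its quasi-likelihood test (edgeR 4.0.16, R 4.3.3, TMM scaling, robust shrinkage) and p-values were adjusted by Benjamini-Hochberg over all genes; an adjusted p under 0.05 was called. SE is the size of the log2 fold change over the root of its F statistic. The 13 primary mice shared 1 fit of 3 groups, and a fit of 2 groups for MCL-like against all non-MCL. Transplants were paired by the donor mouse in the labels; deviations from group means correlated at 0.263, 0.274 and 0.363 within a donor over 12020 genes. Primary replicates are separate mice, while transplants of a donor share its tumour. No library pair agreed within counting noise (chi-square per degree of freedom at least 5.36 in 231 pairs). The fit was also run on simulated counts with known fold changes and the same spread for every gene. The members differ in spread, so that run does not check their results.

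Alternatives were DESeq2 1.42.0, limma-voom (limma 3.58.1), library-size scaling, no filter, libraries kept apart, leaving out each mouse, leaving out or adjusting for libraries named oTP, spleen tumours only, and no donor block. The genes named were the members, up to 4 genes of each related list with the lowest adjusted p against all non-MCL primaries, the 3 genes most like each member (mean of at least 10 CPM), and protein-coding neighbours within 100 kb; neighbours are named where a result turned on them. Pirb, Ceacam1, Cd81, Lyn and Fcrl6 are from those lists, while Vpreb1, Ccnd2, Trp53 and Cd5 were added. The members and lists were chosen with earlier results of these data known.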

Additional observations from a re-analysis of the deposited data

Results flagged for a closer look

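In groups of 4 to 10 mice, a highest or lowest value was marked where its gap to the next mouse was wide for the group's range (Dixon's test at 95%); chance marks about 1 in 20 groups, and 5 of 21 groups were marked. Fcrl5 in MCL-like primary replicate 4 was 123 CPM, against 13.4 to 26.6 CPM in the other MCL-like primaries. Fcer2a in MCL-like primary replicate 3 was 18.4 CPM, against at most 2.96 CPM in the other MCL-like primaries. Among p53-only primaries, replicate 2 was high for Fcer2a at 62.3 CPM, with 15.3 CPM next, and for Fcmr at 343 CPM, with 36.6 CPM next. Fcrlb in p53-only replicate 3 was 0.576 CPM, which is 2 counts.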

How the results depend on the processing

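For MCL-like against Ccnd2 non-MCL primaries, 1 member was called, and the count was 0 with library-size scaling, with libraries of a mouse kept apart and in spleen tumours, 2 (Fcrla and Fcrl5) without libraries named oTP, 4 (Fcrla, Fcrl1, Fcrl5 and Fcgr2b) in DESeq2, and 0 to 1 with a mouse left out. Against p53-only primaries the count of 2 became 1 in limma-voom, without oTP libraries and in spleen tumours, and 1 to 2 with a mouse left out. Against all non-MCL primaries the count of 2 became 1 in limma-voom and in spleen tumours, and 1 to 3 with a mouse left out. For Ccnd2 non-MCL against p53-only primaries the count of 0 became 1 (Fcrla) in DESeq2, limma-voom, without a filter, without oTP libraries and with the oTP prefix as a covariate, and 0 to 1 with a mouse left out. For transplants it stayed 0 in 9 of 9 alternatives, and with no replicate block it was 0, with Fcmr at a log2 fold change of -0.79. The cause of these changes was not tested. Counts over all genes moved too. Between MCL-like and Ccnd2 non-MCL primaries edgeR called 40 genes, DESeq2 835, limma-voom 17, and edgeR with libraries apart 13, without oTP libraries 552, with the oTP covariate 19, in spleen tumours 116 and with a mouse left out 0 to 54. Against p53-only primaries edgeR called 753, DESeq2 1827, and edgeR without oTP libraries 116, with the covariate 288, in spleen tumours 35 and with a mouse left out 188 to 1117. Against all non-MCL primaries they were 716, 1750, 248, 213, 37 and 176 to 1091. Between Ccnd2 non-MCL and p53-only primaries edgeR called 0, DESeq2 115, limma-voom 1, and edgeR without a filter 2, without oTP libraries 116, with the covariate 1, in spleen tumours 41 and with a mouse left out 0 to 8. For transplants edgeR called 0, without a filter 35 and with a donor left out 0 to 14. Library-size scaling put the median log2 fold change of all genes at -0.16, against -0.04 with TMM, between MCL-like and Ccnd2 non-MCL primaries and at -0.10, against 0.01, for transplants, and turned no member's sign.

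Of the changes of sign, none was of a called value. Against all non-MCL primaries, Fcrla turned to 0.32 in limma-voom, to 0.27 without oTP libraries and with the oTP covariate and to 0.12 in spleen tumours, and Fcer2a to 0.25 in limma-voom. Between Ccnd2 non-MCL and p53-only primaries, Fcmr turned to 0.066 in limma-voom and 0.15 with the covariate, Fcrl1 to 0.035 with the covariate and 0.58 in spleen tumours, and Fcrl5 to -0.53 without oTP libraries. With a mouse left out, Fcer2a turned in the range -3.12 to 0.73 against p53-only and -2.59 to 1.22 against all non-MCL primaries, both at the top without p53-only replicate 2. Between Ccnd2 non-MCL and p53-only primaries the ranges were -3.30 to 0.54 for Fcmr, -0.79 to 0.16 for Fcrl1, with 0.077 and 0.13 when replicates 1 and 2 of the Ccnd2 non-MCL group were left out, and -0.15 to 2.32 for Fcrl5. For transplants, the ranges were -0.29 to 0.25 for Fcrla, -1.01 to 0.54 for Fcrl1, with 0.42 without replicate 1, -0.55 to 0.21 for Fcrl5 and -0.38 to 0.28 for Fcgr2b. Depth limits Fcrlb in every group and Fcer2a in transplants, and group sizes of 3 to 6 mice limit the rest.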
